A study of Mus musculus with 9 samples.

Results

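The genes described here encode the feeding and reward peptides CART (Cartpt) and neurotensin (Nts), and receptors through which limbic peptides act. The receptors are those for neurotensin (Ntsr1 and Ntsr2), calcitonin and amylin (Calcr), thyrotropin-releasing hormone (Trhr), PACAP (Adcyap1r1), cholecystokinin (Cckbr) and neuropeptide Y (Npy1r and Npy2r). The 10 genes were chosen by name, with earlier results of the same arrays known, and were read by 15 of the 45037 probe sets of the table. Of these probe sets 12 passed the filter on dim signals, and all 10 genes were among the 14208 tested. Cartpt, Calcr, Trhr and Npy2r passed with 0 of the 3 dorsal striatum arrays above the filter's limit, that is through the regions in which they are bright, so that some difference from the dorsal striatum is built into their passing.

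RNA was compared between 3 parts of the mouse forebrain with 3 samples each: a nucleus of the extended amygdala named for the stria terminalis, its bed nucleus (BNST), the NAc (nucleus accumbens), which is the ventral striatum, and the dStr (dorsal striatum). All mice were anesthetized with isoflurane and decapitated, and the tissue was punched from coronal slices of 300 µm, so a punch holds every cell type of its site and possibly some of the neighbouring tissue. The sources used here give no strain, sex, age or genotype, and do not say whether a sample pools animals. The labels call the samples biological replicates without saying that each is a separate animal, so the p-values measure the spread between these samples. One Affymetrix Mouse430_2 array per sample was hybridised, starting from 10 ng of total RNA.

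CART and neurotensin are cut from larger precursors, stored in dense-core vesicles and released by neurons of the accumbens, the extended amygdala and the hypothalamus, where they act on feeding and on dopamine-dependent reward. No receptor gene for CART is among the genes described. Neurotensin acts through Ntsr1, a neuronal receptor, and Ntsr2, whose RNA in the brain is found mostly in astrocytes. The calcitonin receptor also responds to amylin when it is joined to a RAMP protein. The receptors for thyrotropin-releasing hormone and cholecystokinin act mainly through Gq and phospholipase C, the PACAP receptor mainly through Gs and cyclic AMP, and both neuropeptide Y receptors through Gi, with Npy2r often on axon terminals.

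The promoters of both peptide genes are shown because both peptide RNAs had their lowest mean in the dStr, and because CART and neurotensin transcription is known to respond to cyclic AMP. Every receptor gene of the list but Ntsr2 also had its lowest mean in the dStr, so this does not set the peptide genes apart. The letters are those of RefSeq on the mouse assembly GRCm38.p6, 250 bases up to the annotated start, read along the gene, with matched motifs in capitals. Both genes lie on the minus strand, Cartpt at chr13:99900684-99900933 and Nts at chr10:102490419-102490668.
Cartpt: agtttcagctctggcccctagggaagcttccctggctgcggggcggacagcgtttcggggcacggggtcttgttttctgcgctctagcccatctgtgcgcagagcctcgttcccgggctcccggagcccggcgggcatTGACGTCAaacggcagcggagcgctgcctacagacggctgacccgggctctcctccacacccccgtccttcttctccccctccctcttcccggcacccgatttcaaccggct
Nts: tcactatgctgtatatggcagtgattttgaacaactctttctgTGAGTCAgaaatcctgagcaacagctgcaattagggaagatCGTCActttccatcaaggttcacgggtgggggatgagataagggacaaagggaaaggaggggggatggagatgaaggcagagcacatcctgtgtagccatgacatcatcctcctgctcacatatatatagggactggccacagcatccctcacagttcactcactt

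The motifs searched on both strands were the cyclic AMP response element TGACGTCA, its 5-base core TGACG (which the full element contains), the AP-1 element TGANTCA and TATAAA. The Cartpt window held the full element once, starting 112 bases before the start, and it was the only 1 of the 10 member windows with it, against 1.55% of all 32851 RefSeq windows of that length. The Nts window held TGAGTCA, an AP-1 match, 207 bases before the start, and a core match on the other strand 166 bases before it. AP-1 matches were in 2 of the 10 member windows (Nts and Npy1r) and in 6.75% of all windows. Core matches were in 5 of the 10 and in 17.8% of all, in Calcr, which has 2 windows, at both of its starts. TATAAA was in none of the 10 and in 12.4% of all. The windows cover 9 of the 10 genes, and a match is a run of letters, not a measured binding site.

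The array medians lay between 93.9 and 102 intensity units, and 15 was the lowest intensity on all 9, shared by at least 2270 probe sets on each. Levels are compared only within a probe set, because probe sets differ in how brightly they bind. The labelled tissues carried their known markers: summed over 7 medium spiny neuron genes, the arrays read 1185 to 3619 in BNST, 6416 to 11110.4 in NAc and 15838 to 17388 in dStr, and summed over 6 extended amygdala genes 5369 to 6425, 836 to 1876 and 823 to 925. Of these 6 extended amygdala genes, 4 were called higher in BNST than in NAc (0.760% of all genes) and 4 than in dStr (4.94%). Within its own list, Esr1 was at 70.5 to 80.8 in BNST and 62.0 to 83.1 in dStr and did not mark the BNST. Sst overlapped between BNST (603 to 834) and NAc (289 to 682). Genes of ependyma and choroid plexus were higher as a sum in the BNST punches (6 genes, 1501 to 3068, against 504 to 568 over the other 2 regions). Of the 6, 4 were called higher in BNST than in NAc and 4 than in dStr, where 0.760% and 4.94% of all genes were. Otx2 was at the lowest value on all 6 arrays of the other regions. Kcnj13 did not follow (145 to 154 in BNST, 165 to 193 in NAc). Ttr read 621, 277 and 340 on BNST 1 to 3 and 271 to 308 in the other regions. The 13 astrocyte genes summed to 17442 to 19337 in BNST, 14029 to 15346 in NAc and 13029 to 13550 in dStr. Both sums were higher on all 3 BNST arrays together with the genes called higher in BNST, and their part in those results was not tested. Microglial genes went the other way (5 genes, 1896 to 2314 in BNST and 3067 to 3253 in dStr). The sums of oligodendrocyte genes (13156 to 18180, 6 genes) and of genes of thalamus and other Slc17a6 neurons (1954 to 3025, 5 genes) overlapped between all regions. Of the latter 5, 2 were called higher in BNST than in NAc and 2 than in dStr (0.760% and 4.94% of all genes). Slc17a6 read 144 to 196 in BNST and 19.0 to 59.8 elsewhere, and Prkcd 442 to 546 and 188 to 212. Tcf7l2, Lef1 and Rora overlapped between BNST and both other regions. Cortical genes (2 tested of 6 listed) summed to 333 to 407 in BNST, 297 to 383 in NAc and 271 to 324 in dStr, so that BNST lay above dStr, without a call for either gene. The part of the cortical genes and of those of thalamus and other Slc17a6 neurons in the BNST results was not tested. Hypothalamic genes (6 genes) summed to 1207 to 1417 in BNST and NAc and to 1473 to 1484 in dStr. Over all tested genes BNST 1 correlated more closely with NAc 2 and NAc 3 (r = 0.953 and 0.965) than with BNST 2 and BNST 3 (0.934 and 0.948), and NAc 1 reached 0.938 and 0.909 with NAc 2 and NAc 3, which reached 0.964 with each other. BNST 1 also had the highest medium spiny neuron sum of the BNST (3619), and NAc 1 had the lowest extended amygdala sum (836) and the highest medium spiny neuron sum (11110.4) of the NAc. Without both arrays 2, 6 and 7 of the 10 genes were called in place of 1, 6 and 4, in the order BNST against NAc, BNST against dStr and NAc against dStr, while over all 14208 genes 2203, 4150 and 707 were called in place of 318, 2027 and 291. In such punches fewer cells of a type and less RNA per cell cannot be told apart.

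The genes described were mostly brighter in BNST and NAc than in dStr. Differences were tested on log2(value + 16) with limma across all genes, with Benjamini-Hochberg adjustment, and folds are on that scale, which understates the change of dim genes. Between BNST and dStr, 6 of the 10 genes were higher in BNST (Cartpt, Nts, Calcr, Trhr, Adcyap1r1 and Npy2r) and none lower, where 4.94% of all genes were called higher and 9.33% lower. Of the genes called in that comparison 34.6% were higher in BNST, and 52.0% after quantile normalisation. Between NAc and dStr, 4 were higher in NAc (Cartpt, Trhr, Adcyap1r1 and Cckbr) and none lower, where 0.950% of all genes were higher and 1.10% lower. Between BNST and NAc only Cartpt was called, lower in BNST, where 0.760% of all genes were higher and 1.48% lower. Over the 3 regions together 6 of the 10 passed the F test (Cartpt, Nts, Trhr, Adcyap1r1, Cckbr and Npy2r), as did 10.3% of all genes. Since several of these calls rest on genes that were bright enough only outside the dStr, these counts describe the list and carry no test of it.

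**Figure D1:**
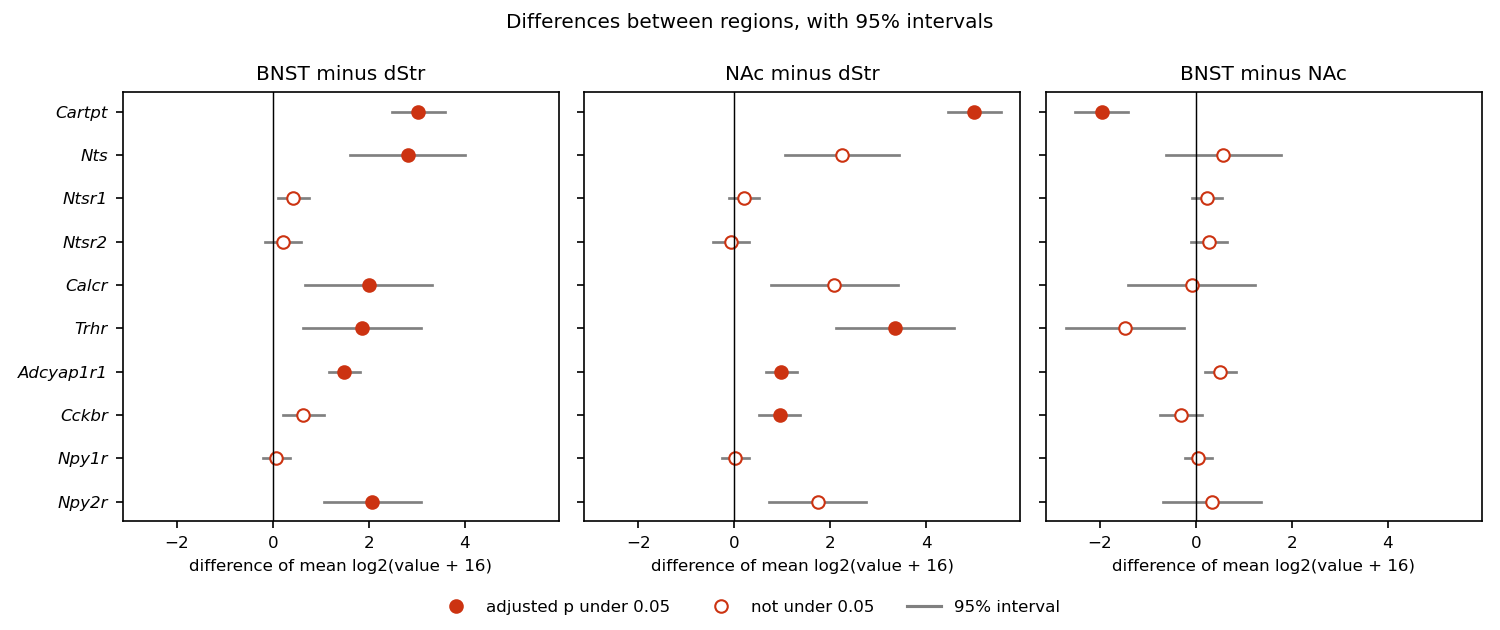
Difference between region means of log2(value + 16) for the 10 genes in each pair of regions (points, filled where the adjusted p was under 0.05) with the 95% interval of the fit (lines). All 10 points lie to the right of 0 for BNST minus dStr, and for BNST minus NAc the filled point is Cartpt at -1.96.

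Cartpt, the precursor gene of the CART peptides, was highest in NAc, lower in BNST and near the lowest value of the table in dStr. Its probe set 1422825_at read 424, 204 and 290 on BNST 1 to 3, 1412, 1125 and 1065 on NAc 1 to 3, and 20.7, 31.1 and 15 on dStr 1 to 3. The NAc arrays were all above the BNST arrays, and these above the dStr arrays, of which dStr 3 stood at the lowest value. The log2 difference was 5.00 (SE 0.25, adjusted p = 1.05e-05) between NAc and dStr and 3.04 (SE 0.25, adjusted p = 8.8e-05) between BNST and dStr. With dStr so dim the size, here and for the other genes near the lowest value in dStr, depends on the pseudocount: for Cartpt between NAc and dStr it was 5.74 with 1 and 3.87 with 64 in place of 16. Between BNST and dStr the same pair of pseudocounts gave 2.76 and 1.13 for Calcr, 2.47 and 1.10 for Trhr, and 2.51 and 1.39 for Npy2r. BNST was 3.90-fold below NAc (log2 difference -1.96, SE 0.25, adjusted p = 0.00361). All of these calls held with any 1 array left out, the highest adjusted p being 0.0282, between BNST and NAc without BNST 3. The highest BNST array was 2.08 times the lowest, and the highest NAc array 1.33 times.

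Nts, which encodes neurotensin and neuromedin N, was called higher in BNST than in dStr but had a different order from Cartpt. The probe set 1422860_at read 1176, 734 and 943 in BNST, 294, 856 and 949.6 in NAc, and 91.4, 301 and 55.96 in dStr. NAc 2 and NAc 3 lay within the BNST values, whereas NAc 1 lay below dStr 2, so that NAc and dStr overlapped. BNST was 7.05-fold above dStr (log2 difference 2.82, SE 0.54, adjusted p = 0.0063), without overlap, and the adjusted p stayed at or below 0.0339 with any 1 array left out. The NAc was 4.74-fold above dStr with an adjusted p of 0.0698, which became 0.0130 without NAc 1 and 0.0226 without dStr 2. BNST and NAc did not differ past the test (log2 difference 0.57, 95% interval -0.63 to 1.77), and without NAc 1 their difference was 0.05.

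**Figure D2:**
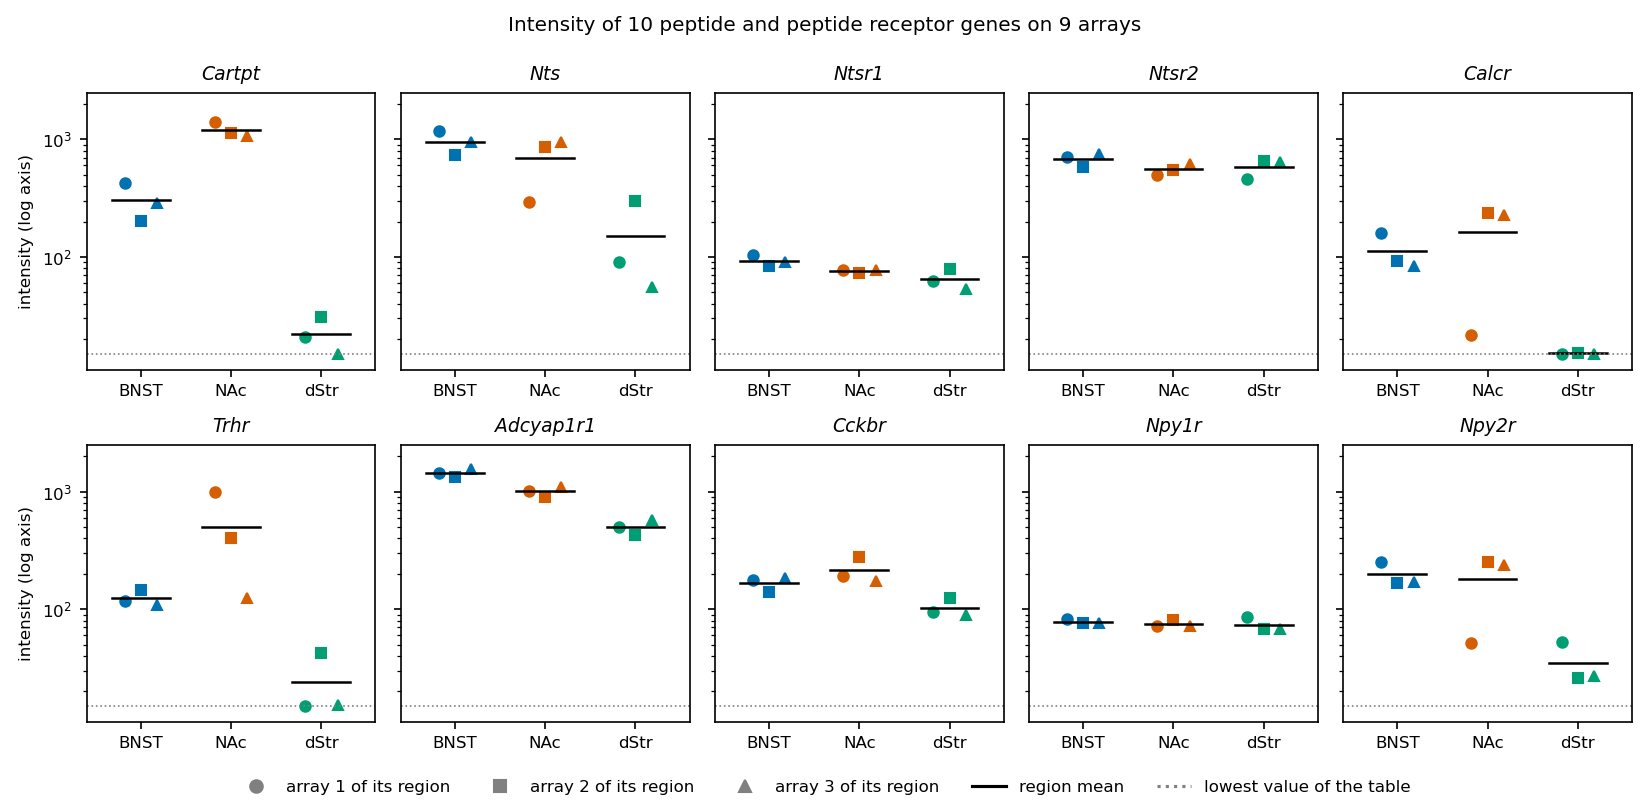
Intensity of the 10 genes on each of the 9 arrays (symbols give the replicate number, bars the region mean, dotted line the lowest value of the table; log axis). The 3 NAc arrays of Cartpt lie at 1065 to 1412 and its dStr arrays at 15 to 31.1, NAc 1 lies far below NAc 2 and NAc 3 for Nts, Calcr and Npy2r, and the Npy1r probe set shown is level and dim.

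The probe sets of the neurotensin receptors varied far less than that of the peptide. Ntsr1 read 103, 83.3 and 90.6 in BNST, 77.4, 72.4 and 78.2 in NAc, and 62.3, 78.4 and 53.7 in dStr. Its BNST arrays were above all others, but no comparison passed: BNST was 1.35-fold above dStr (95% interval of the log2 difference 0.11 to 0.75, adjusted p = 0.0732). That adjusted p was 0.0403 after quantile normalisation, 0.0429 after centring the arrays on their medians and 0.0436 without dStr 2. The Ntsr1 probe set was dim, above the filter's limit of 71.5 to 76.6 on 6 of the 9 arrays. Its small differences therefore do not show that Ntsr1 RNA varied little. Ntsr2 read 713, 582 and 748 in BNST, 501, 553 and 612 in NAc, and 462, 653 and 645 in dStr, and the regions overlapped in every pair. The intervals of its log2 differences ran from -0.16 to 0.59 between BNST and dStr and from -0.44 to 0.31 between NAc and dStr. Astrocyte genes, among which Ntsr2 is usually placed, were called higher in BNST than in dStr for 6 of 13 members and lower for none. Of all genes 4.94% were called higher and 9.33% lower. The median log2 difference of the 13 was 0.45, against 0.22 for Ntsr2, whose adjusted p was 0.433. Slc4a4 did not follow, at 810 to 1502 in BNST and 1259 to 1595 in dStr. Fgfr3 overlapped, at 287 to 399 in BNST and 305 to 351 in dStr.

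Calcr, the receptor of calcitonin and, with RAMP proteins, of amylin, was near the lowest value in all dStr arrays and on 1 NAc array. Its probe set read 160, 93.2 and 83.9 in BNST, 21.6, 236 and 228 in NAc, and 15, 15.4 and 15 in dStr. BNST and dStr did not overlap, and the BNST mean was 4.0-fold higher on the log2(value + 16) scale (log2 difference 2.00, SE 0.60), with an adjusted p of 0.0495 close to the threshold. The call ended without any 1 of the BNST or dStr arrays (adjusted p 0.097 to 0.134), with no filter on dim probe sets (0.0859) and with a pseudocount of 64 (0.0951). Between NAc and dStr the log2 difference was 2.09 with an adjusted p of 0.135. Without NAc 1 the difference was 2.99 and the adjusted p 8.83e-05, and Calcr was then also called lower in BNST than in NAc (log2 difference -1.0, adjusted p = 0.0476).

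Trhr, the Gq-coupled receptor of thyrotropin-releasing hormone, had its highest values in NAc, and NAc 1, the lowest NAc array for Calcr, was the highest. The probe set 1449571_at read 118, 145 and 109 in BNST, 984, 403 and 126 in NAc, and 15, 42.1 and 15.3 in dStr. All NAc and BNST arrays were above all dStr arrays, and NAc 3 lay within the BNST values. NAc was 10.2-fold above dStr (log2 difference 3.35, SE 0.56, adjusted p = 0.0116), a call that ended without dStr 1 (0.0691) or dStr 3 (0.0708). BNST was 3.64-fold above dStr with an adjusted p of 0.0497, close to the threshold. That call ended without any 1 of the BNST or dStr arrays or NAc 2 (adjusted p 0.0615 to 0.159). It also ended with no filter (0.0859) and with a pseudocount of 64 (0.154). NAc and BNST differed by 1.48 on the log2 scale with an adjusted p of 0.263, and of 0.0140 without NAc 3. The other Trhr probe set, 1449572_at, did not pass the filter and read 17.4 to 32.9 over the 9 arrays.

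Adcyap1r1, which encodes the PACAP receptor PAC1, had the steadiest gradient of the list. Its brightest probe set, 1429022_at, read 1435, 1323 and 1548 in BNST, 1017, 893 and 1102 in NAc, and 501, 428 and 577 in dStr. No 2 regions overlapped. BNST was 2.82-fold above dStr (log2 difference 1.49, SE 0.15, adjusted p = 0.000165) and NAc 1.98-fold above dStr (0.98, SE 0.15, adjusted p = 0.0074), and both calls held with any 1 array left out (highest adjusted p 0.00177 and 0.0417). BNST was 1.43-fold above NAc without passing the test (adjusted p = 0.121, and 0.0416 after quantile normalisation). The other probe sets did not show the gradient: 1450799_at read 65.3 to 106 in BNST, 90.8 to 98.5 in NAc and 69.6 to 121 in dStr, with a BNST minus dStr difference of -0.12 (95% interval -0.59 to 0.35), and 1439042_at, which failed the filter, read 25.6 to 43.9. With the mean of both kept probe sets in place of the brightest, the call between NAc and dStr ended (adjusted p = 0.104).

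Cckbr, the main cholecystokinin receptor of the forebrain, read 178, 141 and 185 in BNST, 191, 280 and 174 in NAc, and 95.4, 124 and 88.6 in dStr on 1454770_at. All BNST and NAc arrays were above all dStr arrays, and BNST and NAc overlapped. NAc was 1.92-fold above dStr (log2 difference 0.94, SE 0.19, adjusted p = 0.035), and this call ended without BNST 3, NAc 2 or any 1 dStr array (adjusted p 0.0582 to 0.176), with no filter (0.0648) and with only the NAc and dStr arrays in the fit (0.0634). The difference between BNST and dStr, 1.55-fold with an adjusted p of 0.0546, passed without any 1 NAc array (0.0318 to 0.0473) and under quantile normalisation (0.0186) and median centring (0.0281). The other kept probe set, 1460663_at, differed in sign between NAc and dStr, at -0.17 with a 95% interval of -0.65 to 0.31, and averaging both ended the call (0.285).

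Of the neuropeptide Y receptor genes, whose receptors are both coupled to Gi, only Npy2r passed in a comparison. Npy2r read 252, 168 and 172 in BNST, 51.3, 254 and 236 in NAc, and 52.8, 26.0 and 26.8 in dStr, and was 4.22-fold higher in BNST than in dStr (log2 difference 2.08, SE 0.46, adjusted p = 0.0129; 0.0521 without dStr 2 and 0.0559 without dStr 3). NAc 1 lay at the level of dStr 1, and the adjusted p between NAc and dStr was 0.105, or 0.000653 without NAc 1. For Npy1r the brighter probe set, 1426054_at, read 75.7 to 82.7 in BNST, 71.7 to 80.5 in NAc and 67.9 to 86.1 in dStr, with log2 differences of 0.02 to 0.07 and 95% intervals from -0.27 at the lowest to 0.35 at the highest. This probe set was itself dim, above the filter's limit of 71.5 to 76.6 on 6 of the 9 arrays. Its level reading therefore does not show that Npy1r RNA is level. The dimmer Npy1r probe set, 1421471_at, failed the filter with 1 array above its limit and did not match that level profile. It read 19.2, 25.0 and 19.6 in BNST, 46.8, 73.2 and 88.3 in NAc, and 39.0, 24.9 and 19.7 in dStr. The NAc arrays were above all others on it, by 0.96 against dStr and 1.17 against BNST on the log2 scale, with adjusted p-values of 0.125 and 0.0792 in a limma fit over all 45037 probe sets.

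Counting the arrays that did not overlap, 8 of the 10 genes parted BNST from dStr, where 36.4% of all genes did, 5 parted NAc from dStr (19.1% of all genes), and 3 parted BNST from NAc (14.6%). The members' median log2 difference was 1.68 between BNST and dStr, 1.36 between NAc and dStr and 0.14 between BNST and NAc, where the median of all genes was -0.06, -0.01 and -0.05. The comparisons with dStr share their dStr arrays. Cartpt, Calcr, Trhr and Npy2r passed the filter only through BNST and NAc. Part of these counts and medians against dStr is therefore built in, and they carry no test of the list.

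NAc 1 moved several of these genes at once, and in opposite directions. Against NAc 2 and NAc 3 it was lowest for Nts, Ntsr2, Calcr, Npy1r and Npy2r and highest for Cartpt and Trhr. In NAc the log2 values of 4 of the 10 genes (Nts, Calcr, Trhr and Npy2r) had an SD above the 90th percentile of all genes, which was 0.50, with Calcr at 1.57 and Trhr at 1.41. In dStr 3 of the 10 did (Nts, Trhr and Npy2r), and in BNST 2 (Cartpt and Calcr). Without NAc 1, 7 of the 10 genes were called higher in NAc than in dStr in place of 4, beside 1.63% of all genes in place of 0.950%. The lower extended amygdala and higher medium spiny neuron sums of NAc 1, given above, went with these values, and their part was not tested. The medium spiny neuron genes were not uniform on that array. Drd1, Rgs9, Pde10a, Gpr6 and Scn4b were highest on NAc 1 of the NAc arrays. Ppp1r1b went the other way, at 470, 1095 and 1131 on NAc 1 to 3, and Drd2 read 250, 216 and 252. In dStr, 7 of the 10 genes were highest on dStr 2, and in BNST 7 of the 10 were lowest on BNST 2. Some of these orders rest on very small gaps, as for Calcr at 15 to 15.4 in dStr. The share of all genes with such an order was not counted, so the counts describe the list only.

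**Figure D3:**
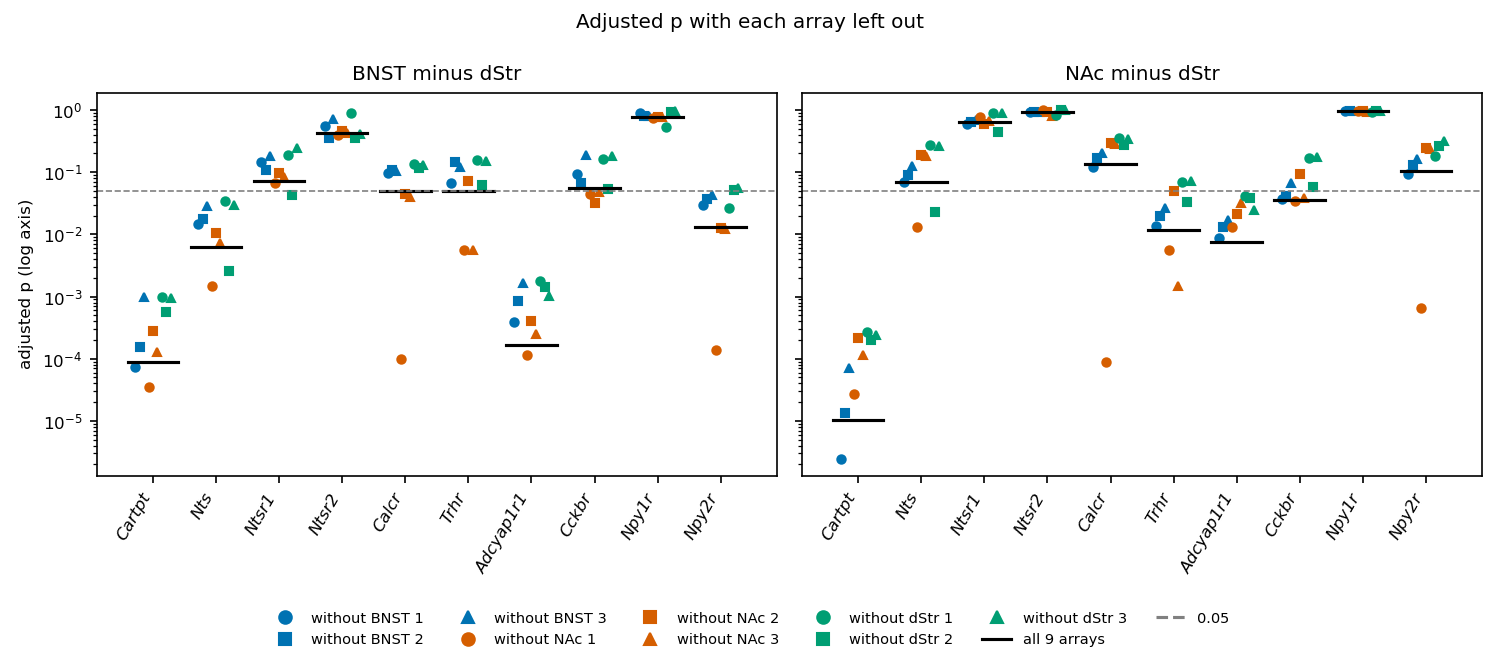
Adjusted p of the 10 genes for BNST against dStr (one panel) and NAc against dStr (the other) with all 9 arrays (black bars) and with each array left out in turn (symbols; log axis, dashed line at 0.05). All symbols of Cartpt and Adcyap1r1 lie under the line in both panels, and leaving out NAc 1 takes Calcr and Npy2r between NAc and dStr to 8.83e-05 and 0.000653.

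The profiles nearest to each called gene were found by the root mean square difference of log2 values over the 9 arrays, after subtracting each gene's own mean. Calcr was nearest to Npy2r (0.35), and then to the potassium channel gene Kcnc2 (0.42) and the calcium pump gene Atp2b4 (0.52). Npy2r was nearest to Kcnc2 (0.30), the protocadherin gene Pcdh19 (0.32) and Calcr. All of these had NAc 1 far below NAc 2 and NAc 3, for example Kcnc2 at 56.7, 216 and 273. Nts was nearest to the netrin receptor gene Unc5d (0.53), the protocadherin gene Pcdh8 (0.54) and the sodium-calcium exchanger gene Slc8a1 (0.55), which were also lowest on NAc 1 of the NAc arrays. On dStr 2, where Nts read 301, Unc5d and Pcdh8 lay between the other dStr arrays, and Slc8a1 was highest at 58.1. Adcyap1r1 was nearest to Grb10 (0.15), Tram1 (0.17) and Nap1l5 (0.17), each falling from BNST through NAc to dStr. Cckbr was nearest to Prkg1 (0.12), Usp46 (0.14) and Cntn3 (0.16). Cartpt had no close neighbour: Dlk1 (0.90), Trhr (0.96) and Cbln4 (1.10) came first, against its own spread about its mean of 2.08. For Trhr they were Wfs1 (0.81), Marchf1 (0.82) and Plcxd3 (0.87). These are descriptions over 9 arrays from 3 regions and say nothing of shared control.

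**Figure D4:**
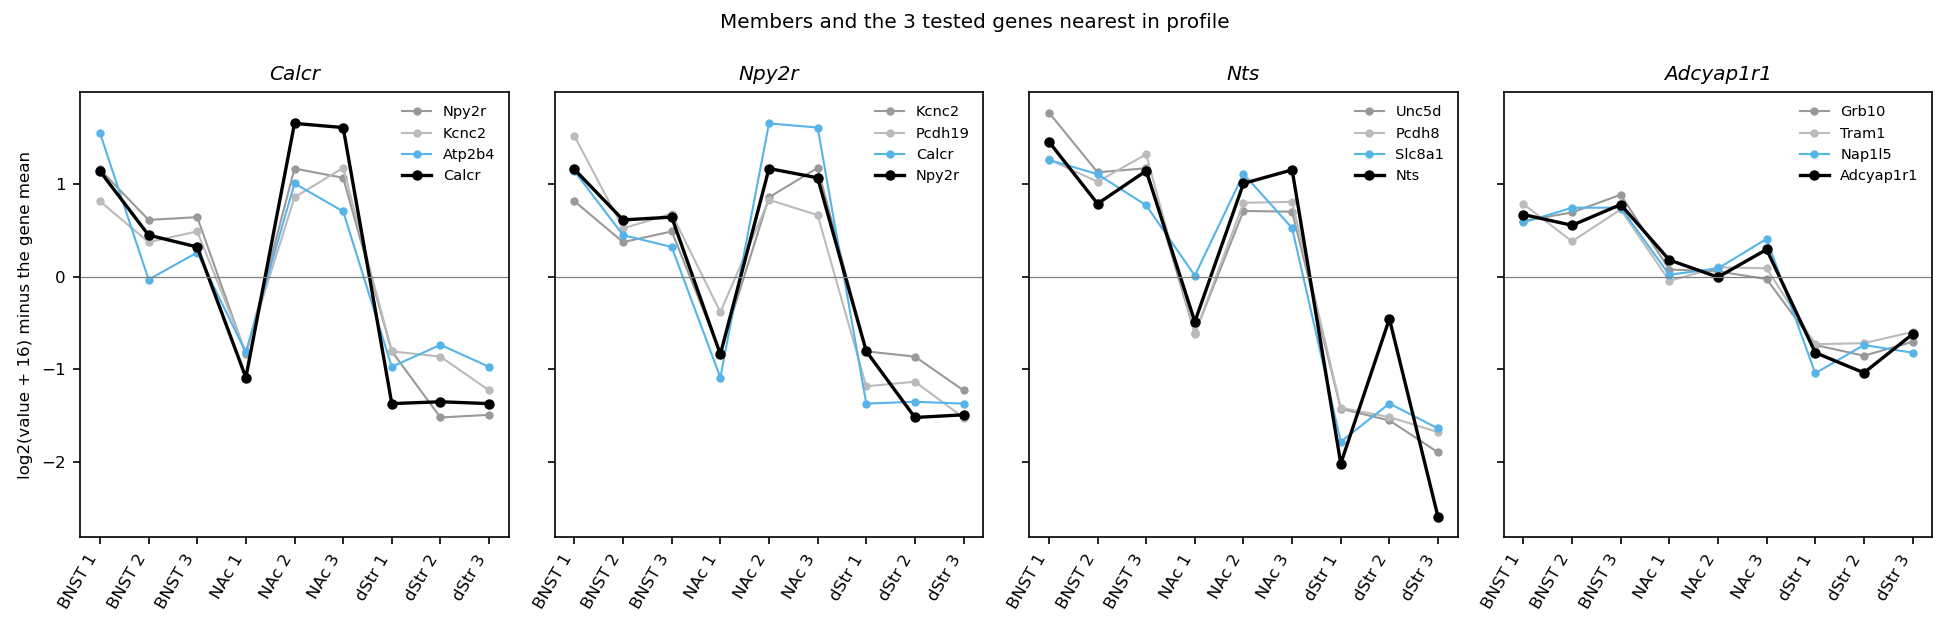
Values of log2(value + 16) minus the gene's mean over the 9 arrays for Calcr, Npy2r, Nts and Adcyap1r1 (black) and the 3 tested genes nearest to each. The lines only join the arrays, which have no order; Calcr and Npy2r and their neighbours drop on NAc 1, and Nts reads 301 on dStr 2, above dStr 1 and dStr 3.

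The other genes of the same peptide systems mostly did not pass. Of 56 listed genes 51 had a probe set with a single symbol and 33 were tested. In BNST against NAc 1 was higher and 1 lower, where 0.760% of all genes were higher and 1.48% lower. In BNST against dStr 1 was higher and none lower (4.94% and 9.33% of all genes). In NAc against dStr 1 was higher and none lower (0.950% and 1.10% of all genes). The median log2 differences were -0.04, -0.04 and 0.08, beside -0.05, -0.06 and -0.01 for all genes. The genes that passed were Ramp3 and Trhde.

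Ramp3, which turns the calcitonin receptor into an amylin receptor, was highest in NAc. It read 108, 79.7 and 75.6 in BNST, 178, 300.4 and 261 in NAc, and 106, 84.6 and 79.3 in dStr, so that NAc was above both other regions without overlap. It was 2.50-fold higher in NAc than in BNST (adjusted p = 0.00851; 0.0545 without BNST 3) and 2.44-fold higher than in dStr (adjusted p = 0.00868; 0.0511 without dStr 2 and 0.0587 without dStr 3). Ramp1 and Ramp2 did not pass in any comparison.

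Trhde, the membrane peptidase that degrades thyrotropin-releasing hormone, was highest in BNST. It read 134, 116 and 167 in BNST, 36.0, 68.2 and 40.9 in NAc, and 15, 23.1 and 15 in dStr, and no 2 regions overlapped. BNST was 4.58-fold above dStr (adjusted p = 0.000142) and 2.44-fold above NAc (adjusted p = 0.0107; 0.0615 without BNST 3), and the adjusted p between NAc and dStr was 0.0519 (0.0246 without NAc 1). All NAc and dStr arrays lay below the filter's limits of 71.5 to 76.6, so Trhde passed only through BNST and a difference is built into its passing, and with 2 dStr arrays at the lowest value the size depends on the pseudocount (log2 difference from dStr 2.20 with 16, 2.91 with 1 and 1.31 with 64). Without a filter the adjusted p was 0.000714 against dStr and 0.0270 against NAc. The region with the highest mean was therefore BNST for the peptidase and NAc for the receptor Trhr. Trh itself read 197 to 202 in BNST, 157 to 265 in NAc and 114 to 219 in dStr and did not pass.

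Of 12 tested G protein and phospholipase C genes through which such receptors signal, 2 were higher and 2 lower in BNST than in dStr, 1 was lower in BNST than in NAc, and 1 was higher in NAc than in dStr. The shares of all genes were 4.94% and 9.33%, 1.48% and 0.950%. Gnas, the Gs alpha subunit gene, read 4190, 4724 and 4917 in BNST and 1638, 1899 and 1913 in dStr (2.52-fold, adjusted p = 0.000954). Gnal, the Golf alpha subunit gene of striatal neurons, went the other way, at 1058, 430.3 and 585 in BNST and 2118, 1954 and 2349.9 in dStr (3.26-fold, adjusted p = 0.00349). It was also lower in BNST than in NAc (adjusted p = 0.0417), a call kept in only 2 of the 9 fits with 1 array left out (up to 0.186, without BNST 3). Gnai1 was 1.47-fold higher in BNST than in dStr (adjusted p = 0.0159; kept in 6 of the 9 such fits, up to 0.0779 without BNST 3). It was 1.5-fold higher in NAc than in dStr (0.0461; kept in 2 of 9, up to 0.205 without dStr 1). Plcb1 was 2.36-fold lower in BNST than in dStr (adjusted p = 0.0213; kept in 4 of 9, up to 0.0835 without BNST 2). Gnaq, the Gq alpha subunit gene, did not pass in any comparison. The probe sets of Gnas and Gnai1 have names ending in s_at, which Affymetrix gives to sets that can bind several transcripts, so that these values are less certain. With unsuffixed probe sets alone the log2 difference of Gnas between BNST and dStr was 0.70 in place of 1.34 (adjusted p = 0.0196), and Gnai1 was no longer called between NAc and dStr (0.126). Averaging over a gene's probe sets ended both Gnai1 calls (0.143 against dStr for BNST and 0.185 for NAc) and took Gnal between BNST and dStr from -1.70 to -0.97 (adjusted p = 0.000421). With only the arrays of the pair in the fit, the calls between BNST and NAc ended for Ramp3 (0.0521), Trhde (0.0587) and Gnal (0.160, and 0.0881 with no filter), and that of Gnai1 between NAc and dStr ended as well (0.0718).

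**Figure D5:**
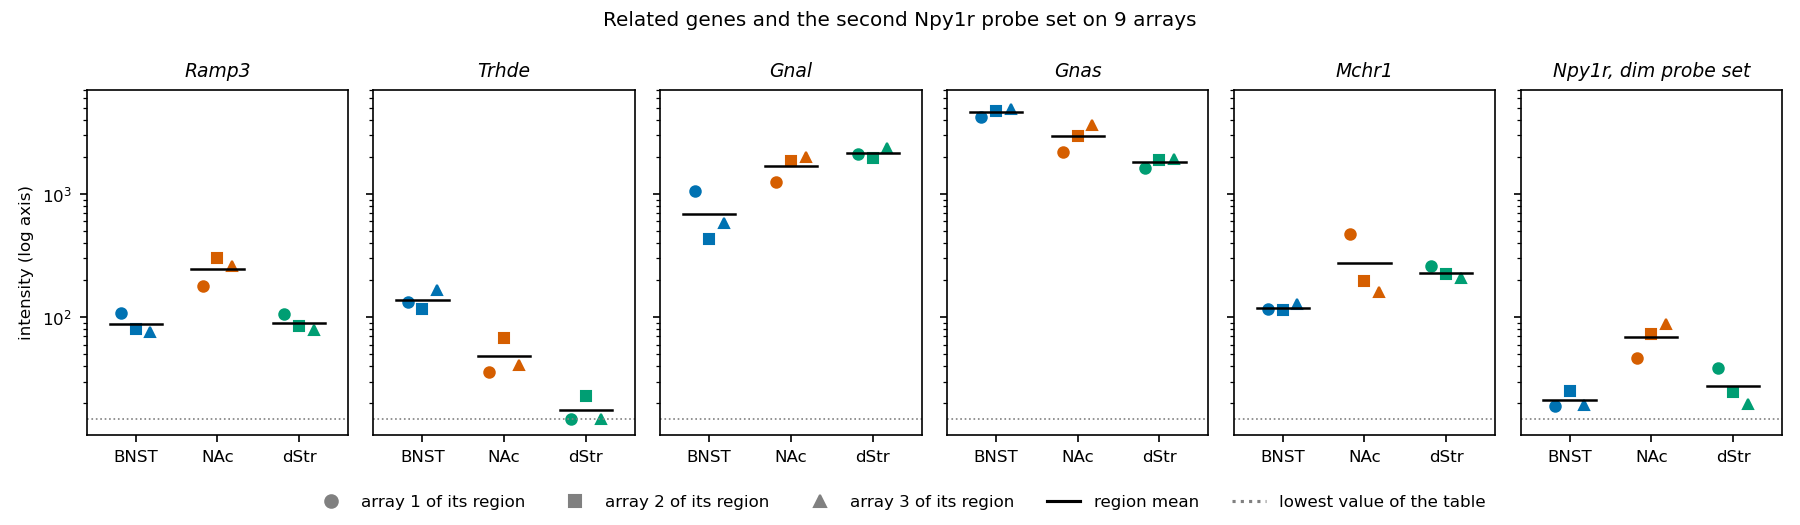
Intensity on each of the 9 arrays (log axis) of Ramp3, Trhde, Gnal, Gnas and Mchr1, and of the dimmer Npy1r probe set, drawn as for the 10 genes. Ramp3 and the dimmer Npy1r probe set are highest on the 3 NAc arrays, Trhde falls from BNST to dStr, and Mchr1, shown after its values were seen, reaches 469 on NAc 1.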

How the data were processed

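The 9 arrays were analysed from 1 table of linear probe-set intensity values as deposited by the authors; per the labels, cRNA was made from 10 ng of total RNA with repeated amplification. How the intensities were summarised and scaled is not given in the sources. Array medians lay within 0.12 of each other (log2), and since rescaling was set for gaps over 0.5, the values were kept as scaled. Precision is limited by the 3 arrays per region.

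Values were taken as log2(value + 16). The filter required a value above its array's 40th percentile on 3 or more arrays and left 29293 probe sets. The platform annotation gave a single symbol for 34945 of the 45037 probe sets, several for 932 and no symbol for 9160, and 34741 matched a current symbol by Entrez identifier. Each gene was represented by the brightest kept probe set (14208 genes). One linear model with a mean per region over the 9 arrays was fitted across all genes with limma 3.58.1 in R 4.3.3, with Benjamini-Hochberg adjustment over all genes in each comparison, a threshold of 0.05 and 2-sided tests. Further fits took all kept probe sets and all probe sets. The procedure was tested on simulated data.

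The 10 members, the related and marker gene lists and the tests were chosen with earlier results of these data known. Every member is given, the listed related genes that passed are named, and the 3 nearest profiles are named for each member that passed. Alternatives were quantile normalisation, median centring, no filter, a stricter filter (60th percentile), averaging over probe sets, unsuffixed probe sets, pseudocounts of 1 and 64, a trend and robust prior, a replicate block, the arrays of the pair alone, leaving out BNST 1 and NAc 1 together, and leaving out each array.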

Additional observations from a re-analysis of the deposited data

How the results depend on the processing

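The 30 differences of the 10 genes were recomputed under up to 23 alternatives each, 657 values in all, of which 579 kept both direction and side of the threshold, 35 lost a call, 22 gained one and 21 changed sign. The 11 called differences kept their sign, except on the other kept probe sets of Adcyap1r1 (-0.122 for BNST minus dStr and -0.0490 for NAc minus dStr) and Cckbr (-0.17 for NAc minus dStr). The uncalled BNST minus NAc differences of these probe sets were -0.0732 for Adcyap1r1 and 0.31 for Cckbr. Among uncalled differences, Calcr between BNST and NAc was 0.0236 with a pseudocount of 1 and ran from -1.0 to 0.38 with 1 array left out, Npy2r there from -0.31 to 0.69, Ntsr2 between NAc and dStr from -0.22 to 0.0196 and Npy1r there from -0.0306 to 0.11. Of 372 values for 18 differences of Ramp3, Trhde and the G protein and phospholipase genes named, 313 kept both, 37 lost a call, 13 gained one and 9 changed sign, all in uncalled differences: Gnai1 between BNST and NAc was 0.0152 after quantile normalisation and 0.0734 with unsuffixed probe sets, and ran from -0.0778 to 0.0553 with 1 array left out; Ramp3 between BNST and dStr was 0.0114 after quantile normalisation and 0.0214 after median centring, and ran from -0.17 to 0.0686. Leaving out BNST 1 and NAc 1 together gave -0.11 for Nts, -0.0046 for Npy1r and -0.49 for Npy2r between BNST and NAc, and 0.0059 for Ntsr2 between NAc and dStr; it also gave 2203, 4150 and 707 genes called in BNST against NAc, BNST against dStr and NAc against dStr and 3686 by the F test, with 2 members called between BNST and NAc and 7 between NAc and dStr. The cause of these changes was not tested.

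The counts of 318, 2027 and 291 genes and 1461 by the F test ran from 101 to 617, 1112 to 2674, 112 to 419 and 740 to 1962 with 1 array left out, and the members called from 1 to 2, 3 to 7 and 2 to 7. With only the arrays of the pair, 71 genes were called between BNST and NAc. With a replicate block, 196 genes were called between BNST and NAc, 183 between NAc and dStr and 953 by the F test. Same-numbered arrays showed no steady pairing: their deviations from the region means correlated across genes at -0.51, -0.22 and -0.25 between BNST and NAc. The values were 0.064, 0.21 and -0.11 between BNST and dStr, and -0.16, 0.023 and 0.26 between NAc and dStr. Not every array correlated best with its own number. With 3 arrays per region these values cannot show whether same-numbered samples came from the same animal. Under the block the calls of Calcr and Trhr between BNST and dStr (adjusted p = 0.0846 and 0.0513) and of Cckbr between NAc and dStr (0.0891) were lost. Quantile normalisation gave 2 members between BNST and NAc, and averaging over probe sets 2 between NAc and dStr. Of the genes called between BNST and dStr, 34.6% were higher in BNST as reported and 52.0% after quantile normalisation (1265 against 1166 lower), with a shift of 0.12 in the median of all genes.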

Other observations

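Several receptor and peptide genes of the same systems were left out by the filter and have no test over genes, so their values are given as they stand, chosen after they were seen. Oxtr, the oxytocin receptor gene, read 72.2, 58.9 and 84.1 in BNST, 35.1, 21.2 and 34.6 in NAc, and 15, 25.3 and 15 in dStr, with all BNST arrays above all others and 2 dStr arrays at the lowest value of the table. Vip, the vasoactive intestinal peptide gene, read 64.4 to 73.3 in BNST, 54.0 to 58.1 in NAc and 26.2 to 42.9 in dStr, and no 2 regions overlapped. Both lie below or near the filter's limit of 71.5 to 76.6.

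Mchr1, Galr2 and Cck were tested and did not pass, and they were likewise chosen after their values were seen. Arrays did not overlap for 36.4% of all genes between BNST and dStr and for 19.1% between NAc and dStr. Mchr1, the melanin-concentrating hormone receptor gene, read 114 to 127 in BNST and 208 to 258 in dStr, without overlap. On NAc 1 to 3 it read 469, 198 and 160. Galr2, a galanin receptor gene, read 106 to 144 in BNST and 213 to 323 in dStr, also without overlap, and 316, 180 and 81.1 on NAc 1 to 3. Both were thus highest on NAc 1 of the NAc arrays, as Trhr was. Cck, the cholecystokinin gene, read 50.9, 86.6 and 90.8 in NAc and 158, 404 and 193 in dStr, so that the peptide gene was lower on all NAc arrays while its receptor gene Cckbr was higher there.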
